A study of Rattus norvegicus with 36 samples.

Results

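Liver gene expression in male Sprague Dawley rats given either of the 2 lowest doses of hexachlorocyclopentadienyl-dibromocyclooctane (HCDBCO), 0.05 and 0.54 mg/kg per day, was set against that of rats given corn oil alone. HCDBCO is a halogenated flame retardant. The 12 dosed samples, 6 at each dose, were pooled by their titles and compared with 6 vehicle samples, out of 36 samples in the study. The other 18 samples, 6 each at 5.41, 54.1 and 541 mg/kg, entered the estimate of the spread and serve below as a comparison. Per the labels' protocols, rats aged 7 weeks received the compound by gavage in 5 ml of corn oil per kg body weight on 5 consecutive days, the vehicle rats at 0 mg/kg. Liver was taken 1 day after the last dose. Each sample was hybridised to 1 Affymetrix 3′ expression array, and values are on the log2 scale, so that a difference of 1 is a doubling. Whether each sample is a separate animal is not stated, and the p-values therefore reflect only how far these samples vary.

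Foreign chemicals that reach the liver are sensed by nuclear receptors, among them CAR and PXR. When active, these receptors raise the transcription of cytochromes P450 (the Cyp2b, Cyp2c and Cyp3a families), of enzymes that attach glucuronic acid or glutathione, and of exporters such as Abcc3. The comparison asks which transcripts the lowest doses changed relative to vehicle, and how large a change could have gone undetected.

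No transcript passed the test at the 2 lowest doses. Of 31042 probe sets, 0 (0%) differed from vehicle at a false discovery rate (FDR) of 5% in limma's moderated test, and the smallest Benjamini-Hochberg adjusted p was 1.00. At an unadjusted p under 0.05 there were 1087 probe sets (3.50%), 615 higher (1.98%) and 472 lower (1.52%) in the dosed samples. Taken alone, 0.05 mg/kg gave 0 probe sets past the FDR (0%), with 939 at an unadjusted p under 0.05, and 0.54 mg/kg gave 0 (0%), with 1297 and a smallest adjusted p of 0.555. The pooled doses did not separate from each other either: 0 probe sets (0%) passed for 0.54 minus 0.05 mg/kg, and 1107 had an unadjusted p under 0.05. Array weights, a variance trend and leaving out each compared sample in turn also gave 0 for all 4 comparisons.

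The precision of the pooled comparison sets which changes lie outside its reach. The margin of a difference, meaning the distance from the estimate to an end of its 95% interval, had a median of 0.14 over all probe sets. The interval lay wholly inside a 1.2-fold change in either direction for 25447 probe sets (82.0%), inside a 1.5-fold change for 30683 (98.8%) and inside a 2-fold change for 30969 (99.8%). The farther end of the interval had a median of 1.14-fold, a 95th percentile of 1.29-fold and a 99th percentile of 1.54-fold. These intervals bound the mean of the 2 doses, in which opposite differences at the single doses can cancel. They hold for 1 probe set at a time. With intervals widened to cover all 31042 together by the Bonferroni method, 82.1% were inside 1.5-fold and 97.4% inside 2-fold. In an equivalence test, made of a pair of one-sided limma tests against a 1.5-fold rise and a 1.5-fold fall and adjusted over all probe sets, 30781 (99.2%) passed. The remaining 261 did not pass, and in 226 of them the interval also included 0. At a 1.2-fold limit 26978 passed and at a 2-fold limit 30992. With 6 samples in place of 12, the share inside 1.5-fold was 98.2% at 0.05 mg/kg and 98.3% at 0.54 mg/kg. The number of arrays limits these margins, and for dim probe sets the interval bounds the array signal, which need not follow the transcript.

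**Figure D1:**
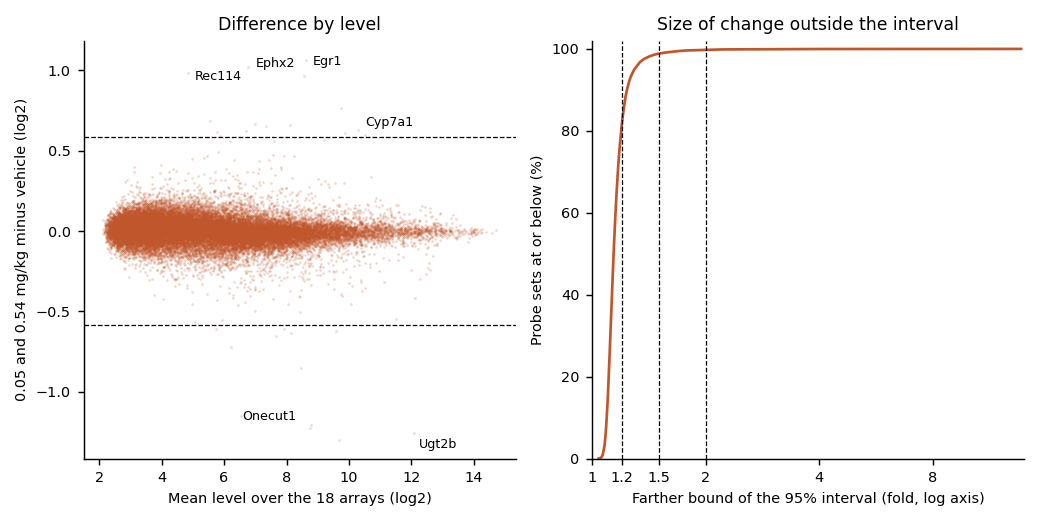
Left, each point is 1 of 31042 probe sets, with its mean log2 level over the 18 arrays on the horizontal axis and the mean log2 difference of the 2 lowest doses pooled minus vehicle on the vertical axis; dashed lines mark a 1.5-fold change. Right, the percent of probe sets whose farther 95% bound is at or below the fold on the log axis; the curve passes 82.0% at 1.2-fold, 98.8% at 1.5-fold and 99.8% at 2-fold (dashed lines).

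The differences themselves were small. The central 98% of probe sets lay between -0.21 and 0.19, with a median of 0.00 and 52.0% higher in the dosed samples, and 28 of 31042 estimates exceeded 1.5-fold. Margins depended on signal: the median margin was 0.12 in the dimmest of 10 equal bins of level, 0.15 in the fifth and 0.11 in the brightest. Alb, albumin, differed by 0.00 (95% interval -0.05 to 0.06), and Ttr, the thyroid hormone carrier transthyretin, by 0.01 (-0.04 to 0.07). Both are hepatocyte products, and their levels of 14.72 and 14.26 are those of liver, the labelled tissue. Of 14 hepatocyte markers 13 passed the equivalence test; the exception, the transcription factor Cebpa, differed by -0.36 (-0.67 to -0.04, unadjusted p = 0.0297).

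Several drug-metabolising genes that differ at the top dose had differences near 0 at the low doses. Ces2c, a carboxylesterase, ran from 6.75 to 7.67 with a median of 7.37 at the 2 lowest doses, against 7.14 to 7.69 with a median of 7.29 in vehicle. No dosed sample was above the highest vehicle sample, and 2 of 12 were below the lowest. The difference was 0.00 (95% interval -0.24 to 0.25, limma unadjusted p = 0.976), which leaves out a change beyond 1.19-fold, whereas 541 mg/kg exceeded vehicle by 1.5. The probe set shared by Cyp2b2 and Cyp2b1, the classical CAR-induced cytochromes P450 of rat liver, ran from 9.68 to 11.32 (median 11.03) at the low doses, against 10.33 to 11.75 (median 10.96) in vehicle. Its difference was -0.06 (-0.44 to 0.33, farther bound 1.36-fold), with 2.20 at 541 mg/kg. By dose it was 0.05 (-0.39 to 0.50) at 0.05 mg/kg and -0.17 (-0.61 to 0.28) at 0.54 mg/kg. Cyp3a23-3a1, a PXR-induced cytochrome P450, spread from 12.37 to 13.26 (median 12.74) at the low doses, wider than the 12.60 to 12.86 (median 12.72) of vehicle. As 4 dosed samples lay above and 4 below the vehicle range, the difference was 0.00 (-0.18 to 0.19, farther bound 1.14-fold). It was -0.08 (-0.30 to 0.13) at 0.05 mg/kg and 0.09 (-0.13 to 0.30) at 0.54 mg/kg.

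Cyp2c6v1, a constitutive and inducible P450, was bounded most tightly of the xenobiotic genes described here. It ran from 13.43 to 13.64 (median 13.57) at the low doses and from 13.46 to 13.63 (median 13.55) in vehicle. The difference of 0.00 (-0.08 to 0.09) leaves out more than a 1.06-fold change in the mean of the 2 doses. Ugt2b1, a glucuronosyltransferase, ran from 11.17 to 12.42 (median 12.20) at the low doses, against 11.85 to 12.25 (median 12.13) in vehicle. Of the dosed samples 5 lay above and 2 below the vehicle range, the lowest being 0.54 mg/kg replicate 6, and the difference was 0.02 (-0.21 to 0.24, farther bound 1.18-fold). Ephx1, microsomal epoxide hydrolase, differed by 0.03 (-0.15 to 0.21), Aldh1a1, a retinal dehydrogenase, by 0.06 (-0.18 to 0.31), and Akr7a3, an aflatoxin aldehyde reductase, by 0.15 (-0.14 to 0.45).

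Abcc3 was the exception in its width. This basolateral exporter of conjugated organic anions ran from 4.75 to 6.00 (median 5.32) at the low doses, against 4.52 to 5.20 (median 5.06) in vehicle. Of the 12 dosed samples, 7 lay above every vehicle sample and none below. The difference was 0.34 (-0.15 to 0.83, unadjusted p = 0.166, adjusted p = 1.00), so a rise of up to 1.78-fold was not excluded. Its differences from vehicle over the 5 doses were 0.29, 0.39, 0.53, 1.53 and 2.14 from 0.05 to 541 mg/kg, all against the same 6 vehicle samples. Gsta3, a glutathione transferase, was also loosely bounded, at 7.10 to 8.84 (median 7.92) in the dosed samples and 7.27 to 8.20 (median 7.60) in vehicle. Its difference was 0.24 (-0.25 to 0.72), with -0.01 at 0.05 mg/kg and 0.48 at 0.54 mg/kg, and the difference between these doses had an unadjusted p of 0.0831.

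**Figure D2:**
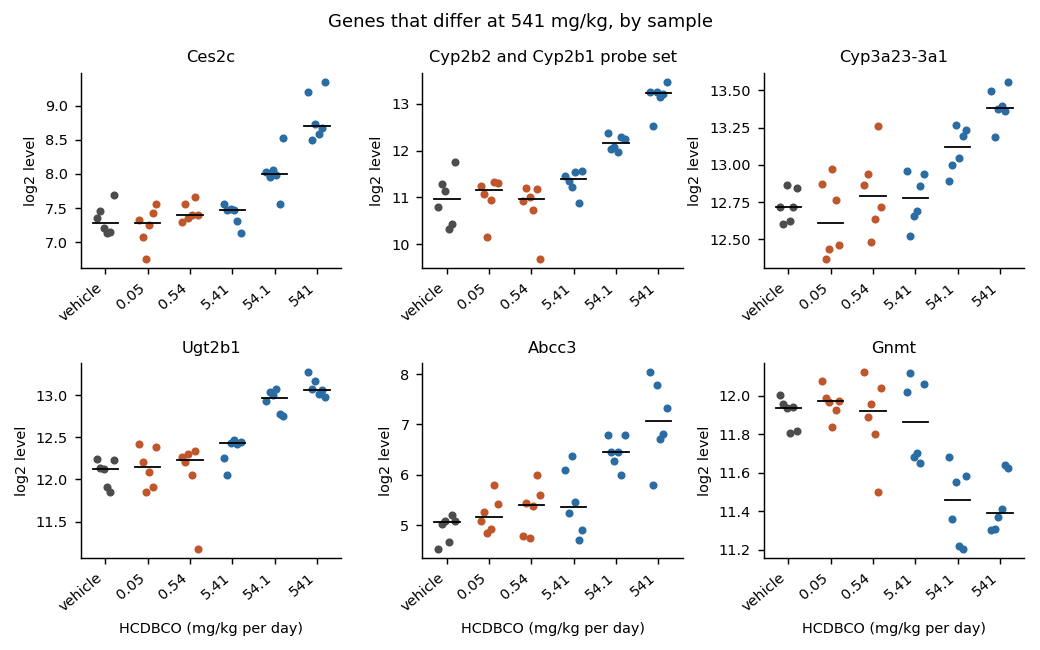
Log2 level (vertical axis) of 6 genes in each of 36 samples by HCDBCO dose (horizontal axis, mg/kg per day); points are samples, bars are group medians, with vehicle in grey, the 2 lowest doses in orange and the higher doses in blue. The orange points overlap the grey ones in all 6 panels, with 0.54 mg/kg replicate 6 at 11.17 in Ugt2b1 as a low point.

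Against these bounds, the higher doses stood apart from the low doses by a direct test. For 541 mg/kg minus the 2 lowest doses, 53 probe sets passed the FDR (0.171%), 46 higher and 7 lower. The count moved by over 1.5 times without any of 4 of the 541 mg/kg samples: 30 without replicate 1, 33 without replicate 3, 34 without replicate 4 and 35 without replicate 6. The probe set shared by Cyp2b2 and Cyp2b1 rose by 2.25 (adjusted p = 1.14e-09). Among probe sets of a single gene, the largest rises were in Abcc3 (1.80, limma adjusted p = 5.44e-05), Ces2c (1.5, adjusted p = 4.49e-10), Gsta3 (1.10, adjusted p = 0.0397), Ugt2b1 (1.00, adjusted p = 1.63e-06), Cyp3a23-3a1 (0.66) and Pir (0.66). They were followed by Akr7a3 (0.65), Cryl1, a gulonate dehydrogenase (0.64), Aldh1a1 (0.62) and Zdhhc2, a palmitoyltransferase (0.61). At 541 mg/kg the largest falls were in Hamp, the iron hormone hepcidin (fell by 0.83, adjusted p = 0.0225), and in Gnmt, which methylates glycine (fell by 0.48, adjusted p = 0.00205). The other named falls were Akr1c15, Slc7a7, Abhd1 and Atrn, by 0.30 to 0.39. For 54.1 mg/kg minus the 2 lowest doses, 7 probe sets passed (0.0226%), 6 of them higher, among them Ces2c (0.68), Ugt2b1 (0.83) and Cyp2c6v1 (0.25), while Gnmt fell by 0.49. This second count was 12 without 0.54 mg/kg replicate 3, and 4, 4, 3 and 15 without 54.1 mg/kg replicates 1, 3, 4 and 5. For 5.41 mg/kg minus the 2 lowest doses, 0 of 31042 probe sets passed the FDR. An unadjusted p under 0.05 in the same limma test was found for 961 (3.10%).

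A comparison of 2 dose groups whose means use neither the low-dose nor the vehicle samples gave a set of responsive transcripts. It was added after the data had been seen. The low-dose differences in this set share no group mean with that comparison. The spread, however, came from all 36 samples, so the low-dose intervals were not independent of the choice. For 541 minus 5.41 mg/kg, 18 probe sets passed (0.0580%), all higher at 541 mg/kg, among them those of Abcc3, Ces2c, Ugt2b1, Cyp3a23-3a1 and Cyp2c6v1. At the 2 lowest doses these 18 had a median difference from vehicle of 0.00, with a range of -0.08 to 0.34, and 11 of 18 were higher, against 52.0% of all probe sets. None had an unadjusted p under 0.05, against 3.50% of all probe sets. At 1.5-fold 17 of 18 passed the equivalence test, against 99.2% of all probe sets, and the remaining gene was Abcc3. Gnmt, lower at both high doses, ran from 11.50 to 12.12 (median 11.96) at the low doses and from 11.81 to 12.001 (median 11.94) in vehicle, a difference of 0.01 (-0.15 to 0.18).

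**Figure D3:**
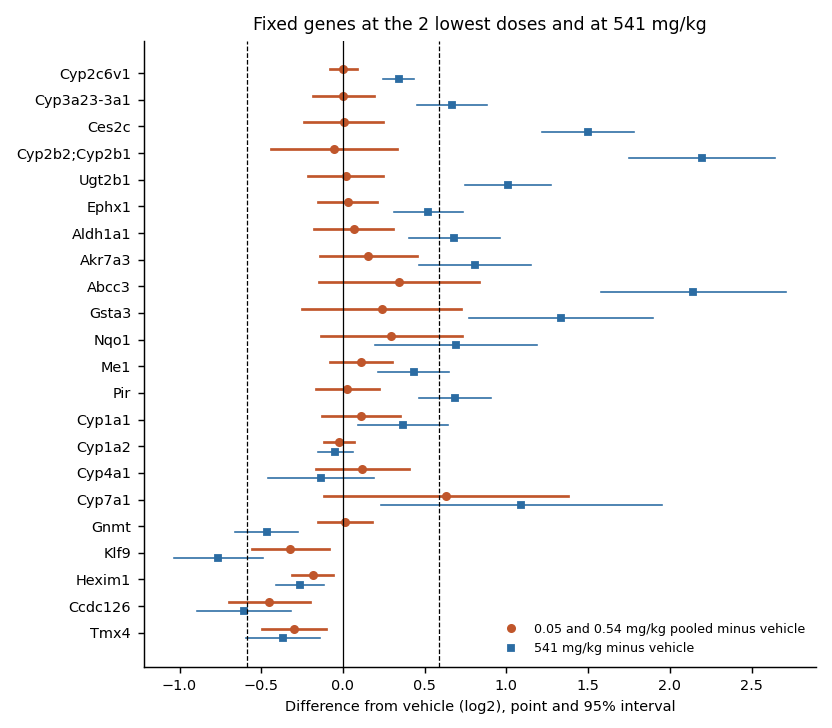
Log2 difference from vehicle (horizontal axis) with its 95% interval for 22 genes or probe sets (vertical axis), at the 2 lowest doses pooled (orange circles) and at 541 mg/kg (blue squares); dashed lines mark a 1.5-fold change. Ces2c reads 0.00 in orange and 1.5 in blue, and Ccdc126 reads -0.45 in orange and -0.61 in blue; both colours share the 6 vehicle samples.

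Pathway by pathway, the gene lists were described by counts over 34 lists with 440 distinct measured genes of 507 listed. None of the 440 passed the FDR. An unadjusted p under 0.05 was found for 13 of them, against 3.38% of the 14217 named genes, and 405 passed the equivalence test at 1.5-fold, against 98.8% of the named genes. In 27 of 34 lists the median difference was within 0.05 of 0. Of 22 measured CAR and PXR target genes, 16 were higher in the dosed samples, against 50.5% of all named genes, with a median of 0.02. The equivalence test was passed by 19, and not by Abcc3, Gsta3 and Cyp3a9. In the same list 9 members rose past the FDR at 541 mg/kg against the low doses, where 46 of all 31042 probe sets rose.

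The oxidative stress factor NRF2 has 20 measured target genes here, with a median difference of 0.03, and 18 passed the equivalence test. Nqo1, a quinone reductase driven by NRF2, ran from 7.09 to 9.59 (median 7.44) at the low doses, against 7.11 to 7.52 (median 7.35) in vehicle. The high value belonged to 0.05 mg/kg replicate 5 alone, and the difference of 0.30 (-0.13 to 0.73) was 0.11 without it. The aryl hydrocarbon receptor (AhR), the sensor of dioxin-like compounds, had 7 measured targets with a median of 0.01. Its marker Cyp1a1 differed by 0.11 (-0.13 to 0.35), at dim levels of 4.32 to 5.18 in the dosed samples and 4.48 to 4.83 in vehicle. The bright hepatic Cyp1a2 differed by -0.02 (-0.12 to 0.07), which leaves out a change beyond 1.08-fold in the mean of the 2 doses. Of 20 PPAR-alpha targets, the fatty acid oxidation programme, 18 passed the equivalence test, with a median of 0.03. Cyp4a1, a fatty acid hydroxylase of that list, differed by 0.12 (-0.16 to 0.40), and the hormone Fgf21 by 0.02 (-1.11 to 1.16), an interval wide enough to include a doubling in either direction; its difference was 0.55 without vehicle replicate 4 and -0.21 without vehicle replicate 2.

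In sterol metabolism, 14 of 17 cholesterol synthesis and uptake genes were higher in the dosed samples, with a median of 0.07 and 16 past the equivalence test, against 50.5% of all named genes higher. The median was 0.01 at 0.05 mg/kg and 0.14 at 0.54 mg/kg. Fdps and Cyp51, enzymes of the mevalonate and sterol branches, differed by 0.09 (-0.06 to 0.24) and 0.07 (-0.10 to 0.25). Of 18 bile acid genes 9 were higher and 16 passed the equivalence test. Cyp7a1, which limits the rate of bile acid synthesis, was one of the 2 that did not. It ran from 9.06 to 11.66 (median 10.74) at the low doses, against 8.62 to 10.46 (median 10.05) in vehicle, and 8 of 12 dosed samples exceeded every vehicle sample. Its difference was 0.63 (-0.12 to 1.38, unadjusted p = 0.0952), so a rise of up to 2.59-fold was not excluded; without vehicle replicate 4 the difference was 0.38. The bile salt uptake carrier Slc10a1 was by contrast held to 0.01 (-0.07 to 0.08).

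Of 15 glucocorticoid response genes 4 were higher in the dosed samples, with a median of -0.09 (-0.05 without 0.54 mg/kg replicate 4), and 11 passed the equivalence test. Over all named genes 50.5% were higher and 98.8% passed this test, so a list that passed in full was near that share. Klf9, a transcription factor induced by glucocorticoids and thyroid hormone, ran from 9.46 to 10.23 (median 9.95) at the low doses, against 9.73 to 10.52 (median 10.27) in vehicle. Its difference was -0.32 (-0.56 to -0.09, unadjusted p = 0.00839, adjusted p = 1.00). It was -0.33 at 0.05 and -0.31 at 0.54 mg/kg, with the vehicle samples shared. Dimmer probe sets of Klf9 gave -0.35 and -0.04. The kinase Sgk1 differed by -0.45 (-1.15 to 0.25), by -0.25 without vehicle replicate 4 and by -0.59 without vehicle replicate 2. Tdo2, tryptophan dioxygenase, differed by -0.09 (-0.23 to 0.05). Acute phase genes stayed near 0: the median over 18 was 0.00, all 18 passed the equivalence test, and haptoglobin (Hp) was held to 0.00 (-0.06 to 0.06). All 12 p53 targets passed it as well, with Cdkn1a, the cell cycle inhibitor p21, at -0.06 (-0.27 to 0.15). All 23 urea cycle and amino acid genes passed, with Cps1, the entry enzyme of the urea cycle, at -0.01 (-0.10 to 0.09). Cell cycle genes had a median of -0.06 over 19, with Mki67, the proliferation marker Ki-67, at 0.05 (-0.43 to 0.53).

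**Figure D4:**
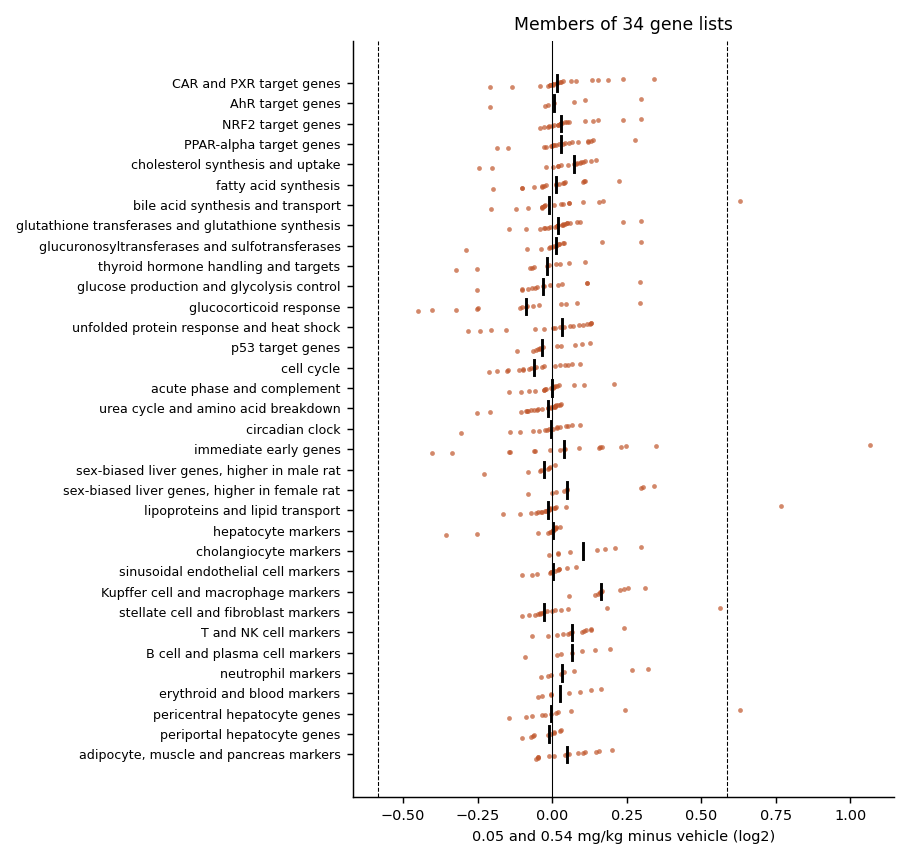
Log2 difference of the 2 lowest doses pooled minus vehicle (horizontal axis) for each measured member of 34 gene lists (vertical axis); each point is a gene, the black bar is the list's median and dashed lines mark a 1.5-fold change. Most points lie near 0, with Egr1 at 1.07 as the highest, and all 11 Kupffer cell and macrophage markers lie above 0.

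All 11 measured Kupffer cell and macrophage markers were higher in the dosed samples, against 50.5% of all named genes, with a median difference of 0.16. Of the 11, 10 passed the equivalence test at 1.5-fold, and none had an unadjusted p under 0.05. The mean level of the 11 per sample ran from 7.75 to 8.88 at the low doses and from 7.65 to 8.56 in vehicle, so the groups overlapped. Clec4f, a Kupffer cell lectin, ran from 9.57 to 10.56 (median 10.40) in the dosed samples and from 9.51 to 10.42 (median 10.22) in vehicle. Cd5l, an anti-apoptotic protein secreted by macrophages, had the widest bound of the list, at 0.31 (-0.20 to 0.82, up to 1.76-fold), or 0.14 without vehicle replicate 4. Without that vehicle sample Clec4f differed by 0.05 in place of 0.16, Cd68, a lysosomal protein of macrophages, by 0.10 in place of 0.23, and Csf1r, their growth factor receptor, by 0.10 in place of 0.16. Other vehicle samples moved them the other way. Without vehicle replicate 2, Cd5l was at 0.43, Cd68 at 0.32 and Csf1r at 0.24, and without vehicle replicate 6 Clec4f was at 0.23. The list's median was 0.27 at 0.05 mg/kg and 0.06 at 0.54 mg/kg, with the vehicle samples shared. In bulk liver RNA, more cells of a type and more RNA per cell cannot be told apart. Sinusoidal endothelial markers had a median of 0.00 over 12, with 6 higher, and all 12 passed the equivalence test, as did 98.8% of all named genes. Lyve1, a hyaluronan receptor, was held to 0.00 (-0.11 to 0.10). Among other immune cell lists, 11 of 13 T and NK cell markers, 6 of 7 B cell and plasma cell markers and 5 of 8 neutrophil markers were higher.

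The sample 0.54 mg/kg replicate 4 stood apart in biliary and stromal genes among others, and several results that rest on it are given with and without it. It had 44 probe sets more than 1.5 from the median of the 36 arrays, 41 of them higher, against 4 to 23 in any other array. Krt19, the bile duct keratin, was at 8.37 in this sample and at most 6.27 in the 35 others. Agr2, a disulfide isomerase of mucus-secreting epithelium, was at 7.63 against at most 4.26 elsewhere. The chemokine Ccl2 was at 8.05 against at most 5.34, and Lum, the matrix proteoglycan lumican, at 8.74 against at most 7.61; Agr2, Ccl2 and Lum were named after their values had been seen. The mean of 8 cholangiocyte markers was 6.91 in this sample, 5.29 to 5.74 in the 11 other low-dose samples and 5.39 to 5.62 in vehicle. With it, 7 of the 8 were higher in the dosed samples with a median of 0.10, and without it 5 were, with a median of 0.03. Krt19 differed by 0.30 with the sample and by 0.05 without it, and Lum by 0.56 and 0.29. The sample was also the highest in the mean of 8 neutrophil markers (4.89, others at most 4.53). In 18 unfolded protein response and heat shock genes its mean was 9.48 (others at most 9.39). Without it, the neutrophil median went from 0.03 to 0.01, and the higher genes of the other list from 12 to 9. The Kupffer cell list gave 11 of 11 higher either way, with a median of 0.14 without the sample.

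**Figure D5:**
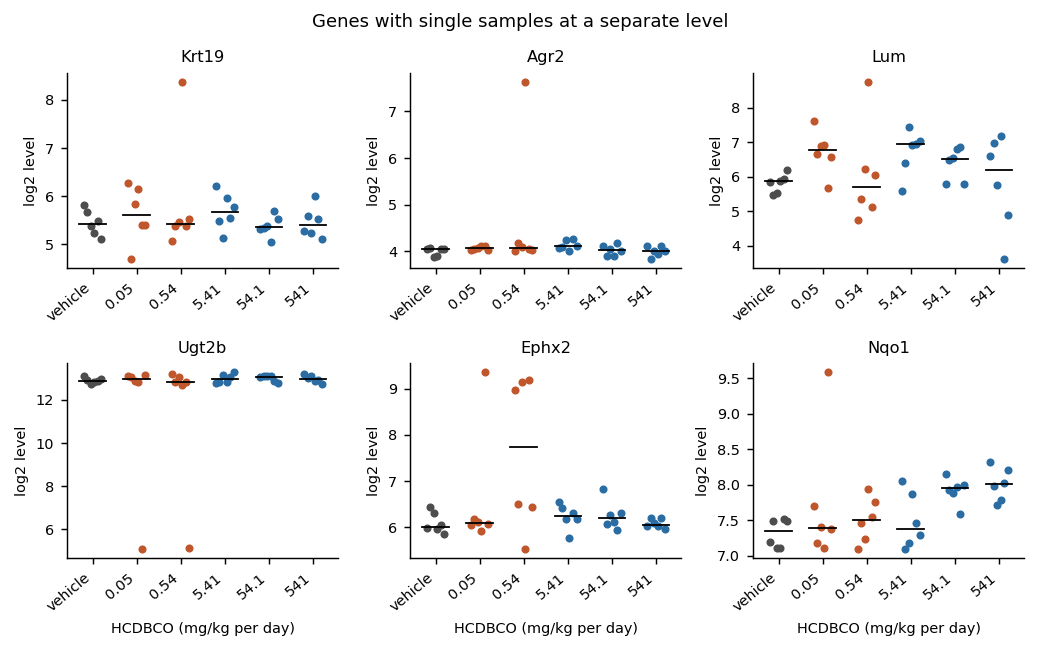
Log2 level (vertical axis) of 6 genes in each of 36 samples by HCDBCO dose (horizontal axis, mg/kg per day); points are samples and bars are group medians, with vehicle in grey, the 2 lowest doses in orange and the higher doses in blue. Krt19, Agr2 and Lum are highest in 0.54 mg/kg replicate 4 (8.37, 7.63 and 8.74), Ugt2b is low in 2 orange samples, Ephx2 is high in 4 and Nqo1 in 1.

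The genes with the smallest unadjusted p did not pass the FDR. Among the 10 smallest in the higher direction, the differences ran from 0.14 to 0.30. They included Tlr2, a receptor for bacterial lipoproteins, at 4.87 to 5.59 (median 5.07) in the dosed samples and 4.71 to 4.90 (median 4.88) in vehicle. All but 1 of the 12 dosed samples exceeded every vehicle sample, and its difference was 0.30 (0.11 to 0.48, unadjusted p = 0.00243). Trem2, a lipid-sensing receptor of macrophages, was at 0.20 (0.08 to 0.32), Pglyrp1, a peptidoglycan-binding protein, at 0.24 (0.09 to 0.38), and Socs1, an inhibitor of cytokine signalling, at 0.19 (0.08 to 0.30). A dimmer probe set of Socs1 gave -0.07, and one of Trem2 gave 0.09. The others were Tro, Gpr15lg, Adam18, Wbp2, Gnat1 and Htr7, for the last of which 2 other probe sets gave -0.01 and -0.12. All 10 were dim, with mean levels of at most 5.19 in the dosed samples and 4.98 in vehicle, and their farther bounds ran from 1.17-fold to 1.40-fold.

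In the lower direction, the smallest p belonged to Ccdc126, which ran from 7.54 to 8.12 (median 7.93) at the low doses, against 8.01 to 8.88 (median 8.29) in vehicle. Of the dosed samples 7 lay below every vehicle sample, and the difference was -0.45 (-0.70 to -0.20, unadjusted p = 7.85e-04, adjusted p = 1.00). Its differences over the 5 doses were -0.40, -0.50, -0.52, -0.68 and -0.61, all against the same vehicle samples. For 541 mg/kg minus the low doses, a difference that uses no vehicle mean, Ccdc126 gave -0.15 (adjusted p = 0.832). Nr3c1, the glucocorticoid receptor, was at -0.22 (-0.37 to -0.08), Map2k6, a kinase upstream of p38, at -0.35 (-0.57 to -0.13), and Tmx4, a thioredoxin-related membrane protein, at -0.30 (-0.49 to -0.10). Dimmer probe sets gave 0.04 for Tmx4, -0.05 for Nr3c1, -0.06 for Msantd2, and -0.03 for both others of Ttbk2. The others were Ttbk2 and Ift88, which act in building cilia, Dvl2 of Wnt signalling, and Prb3, Msantd2 and Zfp654, at -0.18 to -0.33. Hexim1, an inhibitor of transcription elongation, differed by -0.19 (-0.31 to -0.06).

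The widest interval of all, -3.78 to 1.19 around -1.30 (up to 13.7-fold), belonged to a probe set shared by several genes. Among probe sets of a single gene, 5 genes had the widest intervals. Ugt2b, a glucuronosyltransferase, was at 5.06 in 0.05 mg/kg replicate 5 and at 5.11 in 0.54 mg/kg replicate 6, and between 12.71 and 13.28 in the 34 other arrays. A second probe set showed the same 2 samples low, at 2.98 and 2.75, with 8.58 or more elsewhere. Its mean difference of -1.26 (-2.99 to 0.48, unadjusted p = 0.151) thus rests on 2 of 12 samples. Abhd3, a phospholipase, was near 7 in 0.05 mg/kg replicates 1 and 6 (7.00 each) and at 7.67 in vehicle replicate 4, with 3.19 or less in the other samples of these groups, which gave a difference of -0.09 (-1.95 to 1.76). The other 3 were Ubd, a ubiquitin-like modifier (0.44, -0.95 to 1.84), Bcl6, a transcriptional repressor (0.65, -0.74 to 2.05), and Cdh17, a cadherin (-0.50, -1.85 to 0.84). Single samples moved the estimates of these genes: leaving out 1 sample at a time, Ubd ranged from 0.03 (without vehicle replicate 2) to 0.77 (without vehicle replicate 4), Cdh17 from -0.999 (without vehicle replicate 2) to -0.27 (without 0.05 mg/kg replicate 1), and Abhd3 from -0.37 (without 0.05 mg/kg replicate 6) to 0.71 (without vehicle replicate 4). Bcl6 ranged from 0.42 (without 0.54 mg/kg replicate 6) to 0.81 (without 0.54 mg/kg replicate 5). Ugt2b ranged from -1.42 (without 0.54 mg/kg replicate 1) to -0.59 (without 0.05 mg/kg replicate 5).

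Among named genes, 17 had an estimate beyond 1.5-fold; they were picked out for their size, and none passed the FDR. Ephx2, soluble epoxide hydrolase, was at 9.36 in 0.05 mg/kg replicate 5 and at 8.97, 9.14 and 9.20 in 0.54 mg/kg replicates 1, 3 and 5. In the other 32 arrays it was at most 6.83, and the difference was 1.02 (0.19 to 1.86, unadjusted p = 0.0175). Egr1, an immediate early transcription factor, ran from 7.78 to 10.02 (median 8.97) at the low doses, against 6.96 to 9.06 (median 7.94) in vehicle. The difference was 1.07 (0.35 to 1.78, unadjusted p = 0.00485), and 5 of 12 dosed samples exceeded every vehicle sample. Over the 5 doses Egr1 differed by 0.96, 1.17, 1.34, 1.55 and 0.42, with the vehicle samples shared. The immediate early list of 18 genes had a median of 0.04. Beside Egr1, Klf6 (0.25) and Nr4a1 (0.17) had an unadjusted p under 0.05, as did 3.38% of all named genes. Dusp1, a phosphatase of the same class, was at -0.40 (-0.88 to 0.08). Dimmer probe sets of Crem, also on the list, gave -0.36 to -0.04. Those at -0.36 and -0.20 had unadjusted limma p-values of 0.00473 and 0.0254 and did not pass the FDR. Crem's brightest probe set, which the list counts use, did not reach an unadjusted p under 0.05.

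Onecut1, a hepatocyte and biliary transcription factor, ran from 6.80 to 9.99 (median 8.55) at the low doses, against 8.33 to 10.06 (median 9.80) in vehicle. Its difference was -1.21 (-2.29 to -0.12, unadjusted p = 0.03), with 6 dosed samples below every vehicle sample. Its differences over the 5 doses were -1.19, -1.22, -1.42, -2.16 and -2.08, with the vehicle samples shared. Rec114, a meiotic recombination gene, was at 7.36, 7.50, 6.41 and 5.81 in 0.05 mg/kg replicates 1, 3, 5 and 6, and at most 5.15 in the other low-dose samples and 4.46 in vehicle, a difference of 0.99 (0.14 to 1.83). The cholesterol exporter Abca1 differed by 0.77 (0.09 to 1.45), by 0.51 without vehicle replicate 4 and by 0.97 without vehicle replicate 2. The chemokine Cxcl1 differed by 0.69 (-0.05 to 1.42), by 0.51 without 0.54 mg/kg replicate 4 and by 0.81 without 0.54 mg/kg replicate 5. The rest, beside Ugt2b, Bcl6 and Cyp7a1 above, were Slc25a25, Socs2, Slc25a30, Resp18 and Lox, between -0.65 and -0.61, and Tsx, Dpt and Mx2, between 0.59 and 0.62. Lox was at -0.38 without 0.54 mg/kg replicate 5 and at -0.87 without vehicle replicate 3.

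As whole profiles the arrays did not separate at this sample size. On principal component 1 of the 18 arrays, which held 11.6% of the variance, the dosed samples averaged 2.46 ± 9.19 and the vehicle samples -4.92 ± 11.1 (SD, n = 12 and 6; two-sided exact permutation test, p = 0.151, 0.453 adjusted over 3 components). Components 2 and 3 gave exact p-values of 0.688 and 0.993. The excess of 3′ over 5′ log2 signal in the beta-actin control probe sets, which grows as RNA degrades, was 1.13 ± 0.0892 in the dosed samples and 1.13 ± 0.0758 in vehicle (SD; exact permutation p = 0.970).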

How the data were processed

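The deposited table held the authors' log2 values for 31099 probe sets in 36 arrays, made with RMA and the affy package, per the submitters' processing notes, which give no versions; no raw intensities were used to check the log base. The 57 control probe sets were left out. Gene names came from the array annotation supplied, set against a RefSeq table of assembly GRCr8; 20826 probe sets had 1 symbol, 436 had several and 9780 had none listed. Where several probe sets had the same gene, the brightest stood for it. Per the labels, groups and replicate numbers come from the titles; no batch is given.

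Limma 3.58.1 in R 4.3.3 fitted 6 group means over all 36 samples (35.5 degrees of freedom). Tests were two-sided and adjusted by Benjamini-Hochberg over all 31042 probe sets at 5%; the procedure was tested on simulated data. The equivalence test took the larger of 2 one-sided p-values. The contrast is the mean of the 0.05 and 0.54 mg/kg means minus the vehicle mean. Named genes were the 10 smallest p-values in each direction where under 10 passed, the brightest members of each list, a fixed list of genes, the 5 widest intervals, and the 10 largest rises and falls past the FDR for 541 mg/kg minus the low doses; other genes, such as Cebpa, Klf6, Cyp3a9 and those beyond 1.5-fold, were named after their values were seen. The members, lists and genes were chosen with earlier results of these data known. Same-numbered samples of the 3 groups had correlations of -0.18 to 0.15 between their deviations over 18 pairs, so numbers were not taken as pairs.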

Additional observations from a re-analysis of the deposited data

Results flagged for a closer look

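Of 84 genes examined in the 0.05 mg/kg, 0.54 mg/kg and vehicle groups of 6, a single sample lay far from the 5 others of its group, by Dixon's criterion, in 26 of 252 cases. Chance flags about 1 in 20 groups, but that rate does not apply here, because many of the 84 genes were chosen for wide intervals, large differences or high values in 1 sample. Values are on the log2 scale.

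At 0.54 mg/kg, replicate 4 accounted for 8 of these, all higher than the 5 others: Krt19 at 8.37 (others up to 5.53), Spp1 at 7.73 (5.93), Tspan8 at 8.50 (5.76), Agr2 at 7.63 (4.19), Gpx2 at 7.28 (3.88), Ccl2 at 8.05 (4.41), Lum at 8.74 (6.21) and Dcn at 8.44 (6.32). Most of these genes were picked because this sample was high in them. At 0.54 mg/kg, replicate 6 was low in Ugt2b1 at 11.17 (others from 12.05) and in Ugt2b at 5.11 (from 12.7). Replicate 3 was high in Hamp at 13.31 (up to 12.9), and replicate 2 in Gpr15lg at 3.61 (up to 3.49).

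At 0.05 mg/kg, replicate 5 was high in Nqo1 at 9.59 (others up to 7.70) and Ephx2 at 9.36 (6.17), and low in Ugt2b at 5.06 (others from 12.8) and Ubd at 4.97 (from 8.03). Replicate 4 was low in the macrophage markers Clec4f at 9.69 (from 10.3) and Cd68 at 7.49 (from 8.24). Replicate 1 was low in Klf9 at 9.46 (from 9.91), and replicate 6 in Abca1 at 8.28 (from 10.1).

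In vehicle, replicate 4 was high in Abhd3 at 7.67 (others up to 3.07). Replicate 2 was low in Onecut1 at 8.33 (from 9.57) and Cdh17 at 6.28 (from 8.86), and high in Abhd1 at 8.76 (up to 8.64). Replicate 5 was high in Dpt at 10.81 (up to 10.1) and low in Gpx2 at 3.46 (from 3.69). Without vehicle replicate 2 the difference of Onecut1 was -1.46. No probe set differed between 0.54 and 0.05 mg/kg past the FDR.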

How the results depend on the processing

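The 0 calls for the pooled doses, for 0.05 mg/kg, for 0.54 mg/kg and for 0.54 minus 0.05 mg/kg remained 0 under all settings run for each. It follows that no gene named for the pooled comparison passed the FDR in the 905 gene values recomputed from the same fits. With the replicate number as a block, which the labels do not say pairs the samples, the pooled doses gave 0, the share inside 1.5-fold was 98.9%, and 541 and 54.1 mg/kg minus the low doses gave 50 and 6; only 2 of 18 samples correlated best with a sample of their own number. Leaving out each sample in turn gave 0 to 0 calls for the 4 low-dose comparisons, shares inside 1.5-fold of 98.5% to 98.8%, 30697 to 30789 probe sets past the equivalence test, margins of 0.14 to 0.15, 30 to 73 calls for 541 and 3 to 15 for 54.1 mg/kg minus the low doses, and smallest adjusted component p-values of 0.244 to 0.962. For 541 mg/kg minus the low doses, the count of 53 became 101 with the brighter probe sets alone, 83 with array weights and 80 with a robust variance trend. For 54.1 mg/kg minus the low doses, the count of 7 became 13 with the brighter probe sets alone, 21 with array weights and 15 in a fit lacking the outlying 54.1 mg/kg replicate 5. The equivalence count was 15310 with the brighter probe sets and 14048 with 1 probe set per gene, where fewer were tested. Without 0.54 mg/kg replicate 4, a setting chosen after seeing the data, Agr2 differed by 0.07 in place of 0.36 and Gpx2 by 0.12 in place of 0.41. Genes that vary between samples of a group limit what the intervals can exclude. The share inside 1.5-fold was 99.9% in the dimmest of 10 equal bins of level and 98.1% in the brightest. For dim probe sets, however, the interval bounds the array signal, which need not follow the transcript.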

Other observations

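Genes that differ between male and female rat liver, which follow growth hormone patterns, were compared with vehicle at the 2 lowest doses; of all named genes, 50.5% were higher in the dosed samples. Of 8 measured genes higher in male rats, 1 was higher in the dosed samples and 7 passed the equivalence test at 1.5-fold, with a median of -0.03. The male-specific P450 Cyp2c11 was held to -0.04 (95% interval -0.13 to 0.05), and Cyp3a2 to -0.01 (-0.09 to 0.06). Of 9 genes higher in female rats, 7 were higher in the dosed samples, with a median of 0.05, and 6 passed the equivalence test. Cyp2c12, the classical female-specific P450, was at 0.04 (-0.28 to 0.37).

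Of 11 pericentral genes 9 passed the equivalence test, with Cyp2e1, an ethanol-oxidising P450, at 0.01 (-0.07 to 0.10). All 10 periportal genes passed it, with Arg1, arginase, at 0.01 (-0.11 to 0.12). Of 16 circadian clock genes 15 passed, with a median of 0.00. Over all named genes 98.8% passed.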
